A study of Mus musculus with 22 samples.

Results

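The immediate early and dissociation stress genes examined here are 38 genes, chosen by name, of the 26202 gene symbols counted in RNA libraries of embryonic mouse trachea. Each of the 38 had entries in the count table, and the entries of a symbol were summed. By role, 8 are subunits of the AP-1 transcription factor or their partners and 12 are zinc finger and nuclear receptor factors. Another 12 were grouped as feedback inhibitors, and 6 are heat shock genes. Levels are given as CPM, counts scaled to a common library total, which are not corrected for transcript length and were therefore not compared between genes. A gene entered a test once over 50% of the libraries in any 1 group had at least 1 CPM of it. Egr3 did not reach this in the control libraries and was left out there, so 37 members were tested.

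Immediate early genes are transcribed within minutes of a stimulus without new protein synthesis, because signaling kinases act on factors such as SRF and CREB that already sit at their promoters. Their products include transcription factors (Fos, Jun, Egr1) and inhibitors that end the response (Dusp1, Zfp36). Enzymes and warming used to take tissue apart induce them in many cell types, and protein damage induces heat shock genes such as Hspa1a through the factor HSF1.

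Whole tracheas were taken at E11.5, an embryonic age in days, from 5 controls of genotype Wnt5a f/f and 4 mutants of genotype Dermo1Cre; Wnt5a f/f, in which a Cre active in mesenchyme deletes Wnt5a. Each of these samples pooled 5 tracheas, and the labels state that TrypLE, a protein-digesting enzyme mix, was used on them as well. At E13.5 the tissue was digested with TrypLE and cells were sorted by flow cytometry. Epcam-stained cells were collected as epithelium, cells with the gamma SMA eGFP reporter as muscle, and double-negative cells as chondroblasts. The label gives 15 min of digestion, whereas the methods of the study give another time. Controls of the sorted populations carried Bmp4 f/f; gamma SMA eGFP or Notum 300/300; gamma SMA eGFP, and the library names do not tell which. Mutant chondroblasts carried Notum 150/150; gamma SMA eGFP. The sorted groups held 2 epithelium, 2 muscle, 2 control chondroblast and 3 Notum mutant libraries. E11.5 libraries are called by the number in their column names (control 7, mutant 7 and so on), and sorted controls by the earlier or later of 2 dates in theirs. Age, genotype, sorting and cell composition differ between the E11.5 and the sorted libraries, and no digestion time is listed for the E11.5 samples. These factors, digestion included, cannot be told apart in any comparison of these libraries. RNA of a bulk sample also cannot tell fewer cells of a type from less RNA per cell.

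Total counts ran from 6880660 to 21678177 per library, so that 3 counts, the floor used here, stood for 0.138 to 0.436 CPM. This floor covers counting error only. Epithelial markers summed to 3265 to 3884 CPM in epithelium and 43.3 to 45.4 CPM in muscle, and smooth muscle markers to 10570 to 13670 CPM in muscle and 13.46 to 19.9 CPM in epithelium. Chondroblast markers reached 2110 to 2219 CPM in control chondroblasts, 675 and 1565 CPM in the earlier and later muscle, and 308 to 417 CPM in epithelium. Skeletal muscle markers summed to 634 CPM in the earlier and 38.1 CPM in the later muscle. Macrophage and leukocyte markers summed to 216 CPM in the earlier and 1.37 CPM in the later epithelium. The chondroblast gate held the highest blood cell sum, 70390 CPM in the earlier library and 6591 CPM in the later one. Wnt5a was at 57.7 to 162 CPM in the controls and 46.5 to 127 CPM in the Wnt5a mutants. These ranges overlapped, and counts over a whole gene do not show the loss of an exon. Notum was at 13.8 and 86.1 CPM in control and 13.9 to 35.6 CPM in Notum mutant chondroblasts.

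Control 7 and mutant 7 stood apart from the other E11.5 libraries in these genes. The 38 genes took 0.573% of counts in control 7 and 0.698% in mutant 7, against 0.185% to 0.209% in the other 7 E11.5 libraries, 0.533% to 1.87% in the sorted controls and 0.381% to 0.604% in the Notum mutants. Every comparison with E11.5 controls was therefore made with and without control 7. The library to leave out was picked because of these genes' own levels, so a call gained by leaving it out describes the other 4 controls and is not independent evidence. Other measures moved with the number 7. Blood cell markers summed to 2730 to 3897 CPM in the pair and 5032 to 17990 CPM in the other 7, neural markers to 48.9 to 58.8 CPM against 120 to 372 CPM, and chondroblast markers to 748 to 934 CPM against 229 to 540 CPM. Endothelial markers, at 157 to 189 CPM, lay within the 130 to 424 CPM of the others, and so did epithelial markers, at 370 to 423 CPM within 244 to 715 CPM. The part of these differences in cell content in the levels of the 38 genes was not tested.

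**Figure D1:**
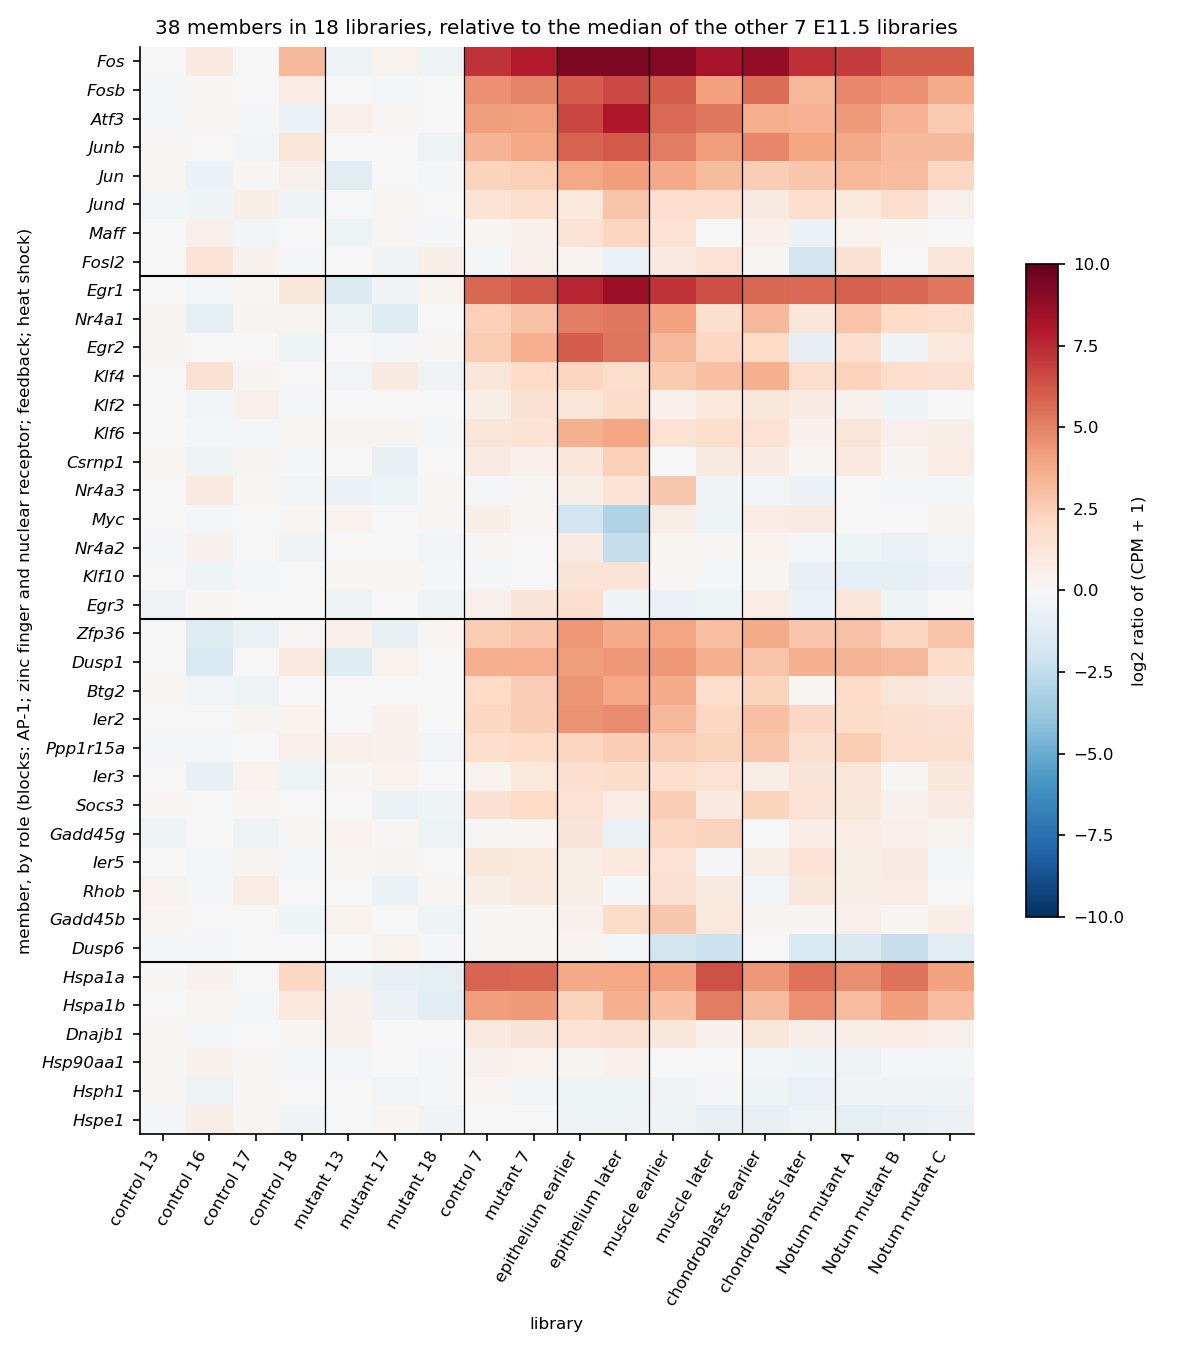
Heat map of the 38 members (rows, in 4 blocks by role) in the 18 libraries (columns), as log2 of CPM + 1 relative to the median of the 7 E11.5 libraries other than control 7 and mutant 7. Red is higher and blue lower. Control 7, mutant 7 and the 9 sorted libraries share the red rows of Fos, Fosb, Atf3, Junb, Egr1, Zfp36, Dusp1, Hspa1a and Hspa1b.

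The AP-1 genes encode leucine zipper proteins that bind DNA in pairs. Fos, the prototype of these genes, had 1.82 to 37.5 CPM (median 3.08) in the other 7 E11.5 libraries, 615 CPM in control 7 and 1003 CPM in mutant 7. It had 2631 and 2643 CPM in the earlier and later epithelium, 2180 and 1228 CPM in muscle, and 1791 and 648 CPM in chondroblasts. The 6 sorted controls did not overlap any of the 7 E11.5 libraries, of which control 18 was the highest. Fosb, a close relative of Fos, was at 0 to 0.963 CPM in the other 7, at 26.2 CPM in control 7 and at 34.6 CPM in mutant 7. Sorted levels of Fosb were 76.0 and 115 CPM in epithelium, 75.0 and 18.9 CPM in muscle, and 54.1 and 10.5 CPM in chondroblasts. Of the 7 low values of Fosb, 4 rested on fewer than 3 counts and 1 on exactly 3, and its fitted fold depends on the prior count.

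Jun, the main partner of Fos, was already abundant in the other 7 E11.5 libraries, at 89.9 to 284 CPM (median 197). It reached 941 CPM in control 7, 1032 CPM in mutant 7, 2929 and 3503 CPM in epithelium, 2765 and 1822 CPM in muscle, and 1100 and 1279 CPM in chondroblasts. Every sorted control lay above every E11.5 library for Jun, control 7 and mutant 7 included. Junb, a Jun relative with weaker activity, had 4.62 to 17.6 CPM in the other 7, 84.6 CPM in control 7 and 118 CPM in mutant 7. Its sorted levels were 482 and 554 CPM in epithelium, 286 and 148 CPM in muscle, and 238 and 126 CPM in chondroblasts, again above all 9 E11.5 libraries. Atf3, a stress-induced repressor of the ATF family, was at 2.62 to 6.66 CPM in the other 7, at 96.9 CPM in control 7 and at 91.2 CPM in mutant 7. Here the populations differed in order, with 564 and 1372 CPM in epithelium, 272 and 211 CPM in muscle, and 64.9 and 58.9 CPM in chondroblasts. The chondroblast libraries lay below control 7 and mutant 7.

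The other AP-1 members were low. Jund, the family member least dependent on stimuli, had 1.87 to 4.82 CPM in the other 7 E11.5 libraries and 6.23 to 26.4 CPM in the sorted controls, without overlap. Fosl2, a late Fos relative, had 1.96 to 8.97 CPM in the other 7 and 0 to 9.34 CPM in the sorted controls, and Maff, a small Maf protein, 0.440 to 1.88 CPM and 0.374 to 7.98 CPM. Neither of the last 2 separated the groups.

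Egr1, a zinc finger activator, was the counterpart of Fos among the 12 factors of the next class. It had 2.97 to 20.9 CPM (median 9.02) in the other 7 E11.5 libraries, 532 CPM in control 7 and 757 CPM in mutant 7. It then had 1916 and 3813 CPM in epithelium, 1540 and 877 CPM in muscle, and 534 and 505 CPM in chondroblasts. Chondroblasts thus had about the level of control 7. Egr2, a relative best known from hindbrain and Schwann cells, was at 0.374 to 1.16 CPM in the other 7, at 9.75 CPM in control 7 and at 21.3 CPM in mutant 7. It was at 120 and 70.8 CPM in epithelium, 16.3 and 6.75 CPM in muscle, and 6.13 and 0 CPM in chondroblasts. Only in epithelium was Egr2 above both libraries numbered 7.

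Klf6, a Krüppel-like factor that responds to injury, had 48.3 to 69.1 CPM in the other 7 E11.5 libraries, 130 CPM in control 7 and 145 CPM in mutant 7. Epithelium had 675 and 873 CPM, muscle 156 and 195 CPM, and chondroblasts 152 and 77.1 CPM. All 6 sorted controls were above the 7, but only epithelium was far above control 7. Klf10, a TGF-beta inducible repressor, did not move with the number 7: it had 36.7 to 58.4 CPM in the other 7, 44.4 CPM in control 7 and 50.8 CPM in mutant 7. Epithelium had 123 and 125 CPM, muscle 57.4 and 42.9 CPM, and chondroblasts 54.5 and 30.0 CPM. Both epithelium libraries lay above every E11.5 library for Klf10, while muscle and chondroblasts overlapped them. Myc, the growth regulator, had the reverse pattern, with 54.7 to 79.6 CPM in the other 7, 92.2 CPM in control 7 and 70.4 CPM in mutant 7. It had 15.8 and 6.80 CPM in epithelium, 102 and 47.3 CPM in muscle, and 107 and 110 CPM in chondroblasts.

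Of the remaining factors, the orphan nuclear receptor Nr4a1 had 1.91 to 7.33 CPM in the other 7 E11.5 libraries and 14.3 to 258 CPM in the sorted controls, while control 7 and mutant 7 had 33.5 and 49.8 CPM. Klf4, a factor of differentiating epithelia, had 1.94 to 9.69 CPM and 11.4 to 42.7 CPM in the same groups, and Klf2, known from vessels under flow, 0.723 to 1.94 CPM and 2.02 to 6.34 CPM, each without overlap. Nr4a2, a relative known from dopamine neurons, had 3.64 to 7.09 CPM in the other 7 and 0.131 to 9.29 CPM in the sorted controls. Nr4a3, at 8.41 CPM or less everywhere, Egr3, at 4.07 CPM or less, and Csrnp1, an early response nuclear protein with 4.53 to 10.3 CPM in the other 7 and 8.47 to 48.3 CPM in the sorted controls, did not separate the groups either.

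The class named feedback inhibitors includes genes that dampen the kinases, mRNAs or cell cycle steps that the response turns on. Others, such as Gadd45b, Gadd45g and Rhob, were only grouped with them. Ier2, a small nuclear protein placed in this class for its early induction, had 73.7 to 104 CPM (median 76.7) in the other 7 E11.5 libraries, 332 CPM in control 7 and 422 CPM in mutant 7. It had 1729 and 2036 CPM in epithelium, 724 and 332 CPM in muscle, and 633 and 326 CPM in chondroblasts, so that muscle and chondroblasts of the later date were at the level of control 7. Dusp1, a phosphatase of MAP kinases, was at 12.2 to 73.8 CPM in the other 7, at 441 CPM in control 7 and at 481 CPM in mutant 7. It was at 678 and 768 CPM in epithelium, 755 and 454 CPM in muscle, and 272 and 455 CPM in chondroblasts, so that muscle overlapped each of the other populations while epithelium lay above chondroblasts.

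Zfp36, which destabilizes mRNAs with AU-rich elements, had 1.74 to 8.80 CPM (median 5.76) in the other 7, 38.8 CPM in control 7 and 45.5 CPM in mutant 7. It had 137 and 85.9 CPM in epithelium, 106 and 52.6 CPM in muscle, and 89.2 and 44.7 CPM in chondroblasts, with the later library lower in each gate. Ppp1r15a, a phosphatase subunit that restores translation after stress, had 23.2 to 40.7 CPM in the other 7, 101 CPM in control 7 and 113 CPM in mutant 7. Of the sorted libraries, it had 132 and 164 CPM in epithelium, 162 and 137 CPM in muscle, and 201 and 87.4 CPM in chondroblasts. These 3 gates overlapped. Ier3, a survival factor, was low, at 1.59 to 4.55 CPM in the other 7, at 4.54 CPM in control 7 and at 8.08 CPM in mutant 7. Its sorted levels were 12.9 and 14.2 CPM in epithelium, 12.98 and 11.04 CPM in muscle, and 5.77 and 9.42 CPM in chondroblasts, each above the other 7.

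Dusp6, a phosphatase specific for ERK and induced by FGF signaling, went the other way in muscle. It had 71.3 to 110 CPM in the other 7 E11.5 libraries, 89.8 CPM in control 7, 96.95 CPM in mutant 7, and 103 and 72.7 CPM in epithelium. Muscle had 23.2 and 17.9 CPM, and chondroblasts had 83.4 and 28.3 CPM. Gadd45g, a stress sensor that binds p38-activating kinases, had 18.4 to 35.1 CPM in the other 7, 29.4 CPM in control 7 and 31.0 CPM in mutant 7. In the sorted cells Gadd45g had 67.3 and 17.1 CPM in epithelium, 118 and 135 CPM in muscle, and 27.7 and 45.7 CPM in chondroblasts. Muscle held the 2 highest values, and neither library numbered 7 left the range of the others. Its relative Gadd45b had 8.20 to 15.3 CPM in the other 7 and its 2 highest values, 82.2 and 45.2 CPM, in the earlier muscle and later epithelium.

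Among the last 4 of this class, Btg2, an antiproliferative gene, had 38.1 to 59.0 CPM in the other 7 E11.5 libraries, 217 and 294 CPM in control 7 and mutant 7, and 1161 and 800 CPM in epithelium. It had 706 and 185 CPM in muscle and 248 and 60.01 CPM in chondroblasts, where the later library was next to the E11.5 range. Socs3, an inhibitor of cytokine receptors, had 8.08 to 15.9 CPM in the other 7 and 23.5 to 79.1 CPM in the sorted controls. Ier5, a modulator of the heat shock response, had 4.20 to 6.06 CPM and 4.36 to 14.9 CPM, and Rhob, a GTPase with a short-lived mRNA, 6.00 to 16.6 CPM and 7.66 to 29.2 CPM, both with overlap.

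**Figure D2:**
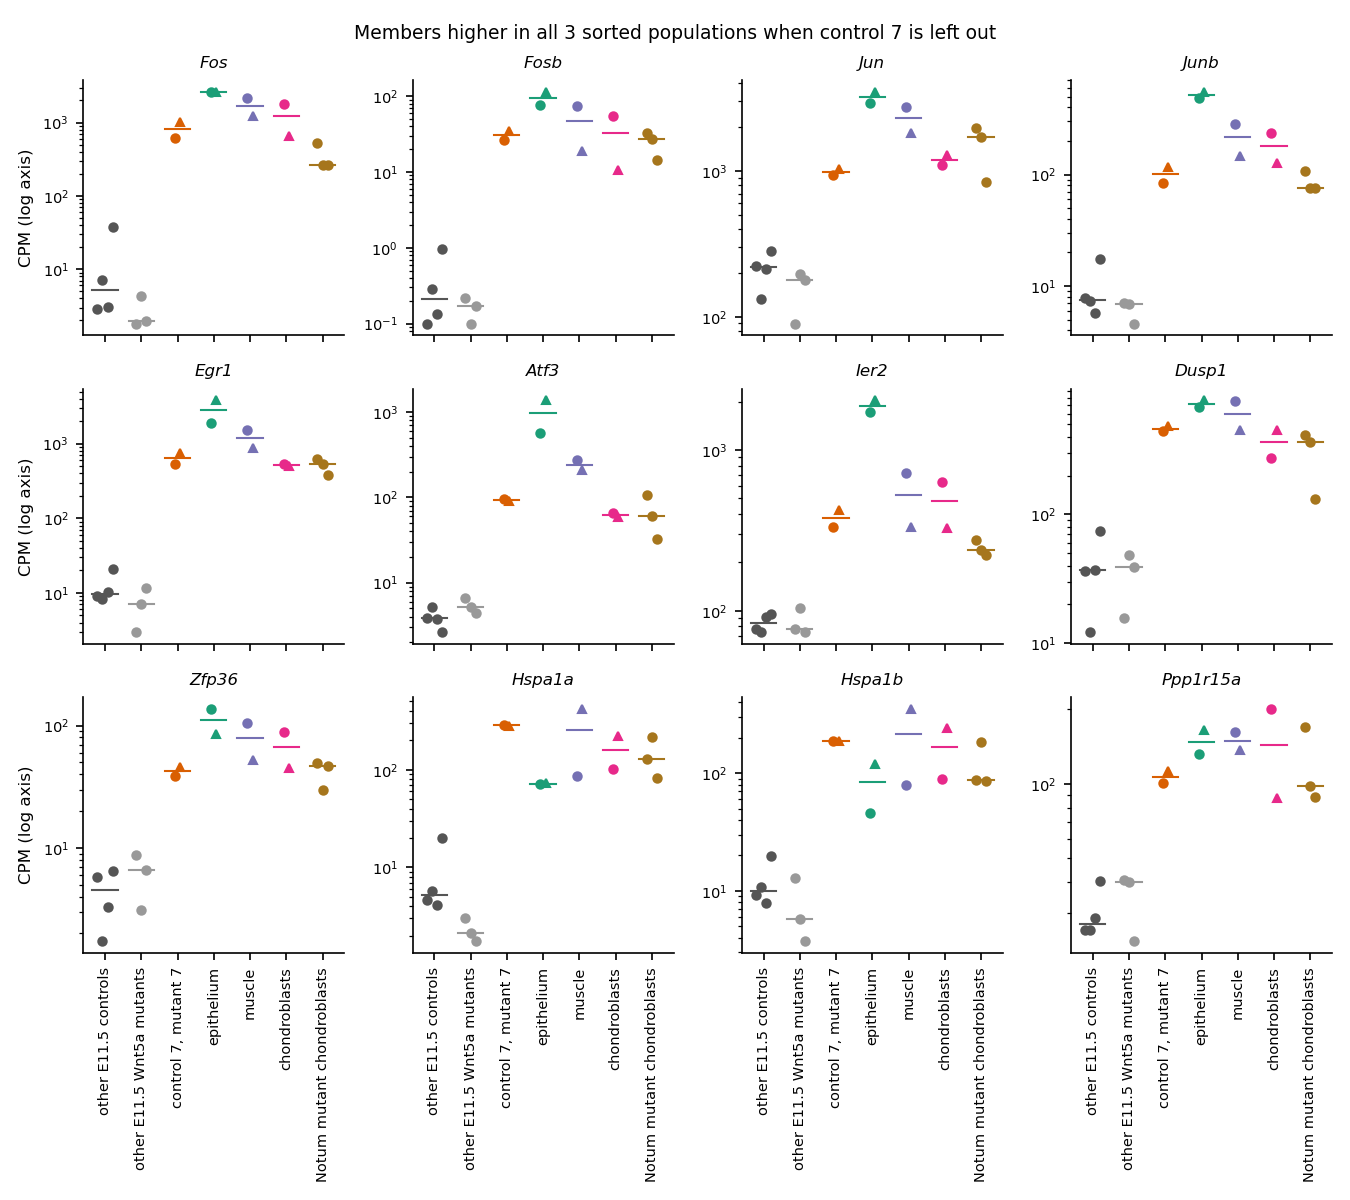
CPM on log axes of 12 members in 7 sets of libraries, 1 point per library, a line at the median of each set. Triangles mark mutant 7 and the later date, and values under 0.1 are drawn at 0.1. In each panel control 7 and mutant 7 and the 6 sorted controls lie above the other 7 E11.5 libraries.

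The heat shock genes are chaperones and their helpers. Hspa1a, the inducible HSP70, had 1.77 to 20.1 CPM (median 4.15) in the other 7 E11.5 libraries, 290 CPM in control 7 and 281 CPM in mutant 7. It had 71.8 and 72.6 CPM in epithelium, 86.0 and 418 CPM in muscle, and 102 and 219 CPM in chondroblasts. Hspa1b, its neighbor, had 3.76 to 19.9 CPM in the other 7, 186 CPM in control 7 and 189 CPM in mutant 7, and then 46.2 and 121 CPM in epithelium, 79.9 and 351 CPM in muscle, and 89.9 and 241 CPM in chondroblasts. Unlike Fos or Junb, both were higher in control 7 and mutant 7 than in epithelium.

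Hspa1a and Hspa1b are near-identical copies on chromosome 17 of mm10, at 34969190-34972156 and 34956436-34959238 in GENCODE M21. Of all runs of 50 bases in the Hspa1a transcript, 58.8% also occur in the Hspa1b transcript, so the split of counts between them is uncertain. Their sum does not depend on the split. It was 5.53 to 40.0 CPM in the other 7 E11.5 libraries, 476 CPM in control 7, 470 CPM in mutant 7, 118 and 193 CPM in epithelium, 166 and 769 CPM in muscle, and 191 and 461 CPM in chondroblasts.

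Hsph1, an HSP110 nucleotide exchange factor, had 102 to 163 CPM in the other 7 E11.5 libraries, 168 CPM in control 7 and 125 CPM in mutant 7. It had 102 and 103 CPM in epithelium, 118 and 131 CPM in muscle, and 110 and 90.4 CPM in chondroblasts, so the groups overlapped throughout. Hsp90aa1, the stress-inducible HSP90, had 496 to 794 CPM in the other 7 and 438 to 813 CPM in the sorted controls, also with overlap. Hspe1, the mitochondrial HSP10, was the 1 member with all 6 sorted controls (160 to 203 CPM) below the other 7 (211 to 395 CPM), a pattern of 3.17% of the 14971 genes tested. Dnajb1, an HSP40 that guides HSP70, had 98.5 to 142 CPM in the other 7, 209 and 263 CPM in control 7 and mutant 7, and 146 to 320 CPM in the sorted controls, without overlap.

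Counted by position alone, 21 of the 37 tested members had all 6 sorted controls above the other 7 E11.5 libraries, and 1.62% of all genes tested did so. For 22 of the 37, control 7 and mutant 7 were both above the other 7, where 11.6% of all genes tested were. Egr3, which was not tested, was also above them, at 1.23 and 2.82 CPM against at most 0.723 CPM, and is not in these counts. In both counts stood 19 members: Fos, Fosb, Jun, Junb, Jund, Egr1, Atf3, Ier2, Dusp1, Zfp36, Nr4a1, Klf2, Klf6, Btg2, Hspa1a, Hspa1b, Dnajb1, Socs3 and Ppp1r15a. Of all 14971 genes tested, 87 were in both counts. Both counts use the same 7 libraries as their base. Egr2, Ier5 and Csrnp1 were above the 7 in control 7 and mutant 7 without being so in every sorted library, and Ier3 and Klf4 were so in the sorted libraries alone.

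The mean of control 7 and mutant 7 was over 5 times the median of the other 7 for 12 members and for 32 of all genes tested. The 6 members furthest apart were Fos at 263 times, Fosb at 178 times, Egr1 at 71.5 times, Hspa1a at 68.7 times, Atf3 at 21.2 times and Hspa1b at 20.4 times. These ratios describe 2 libraries chosen because they stood apart, and no test was made of them.

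**Figure D3:**
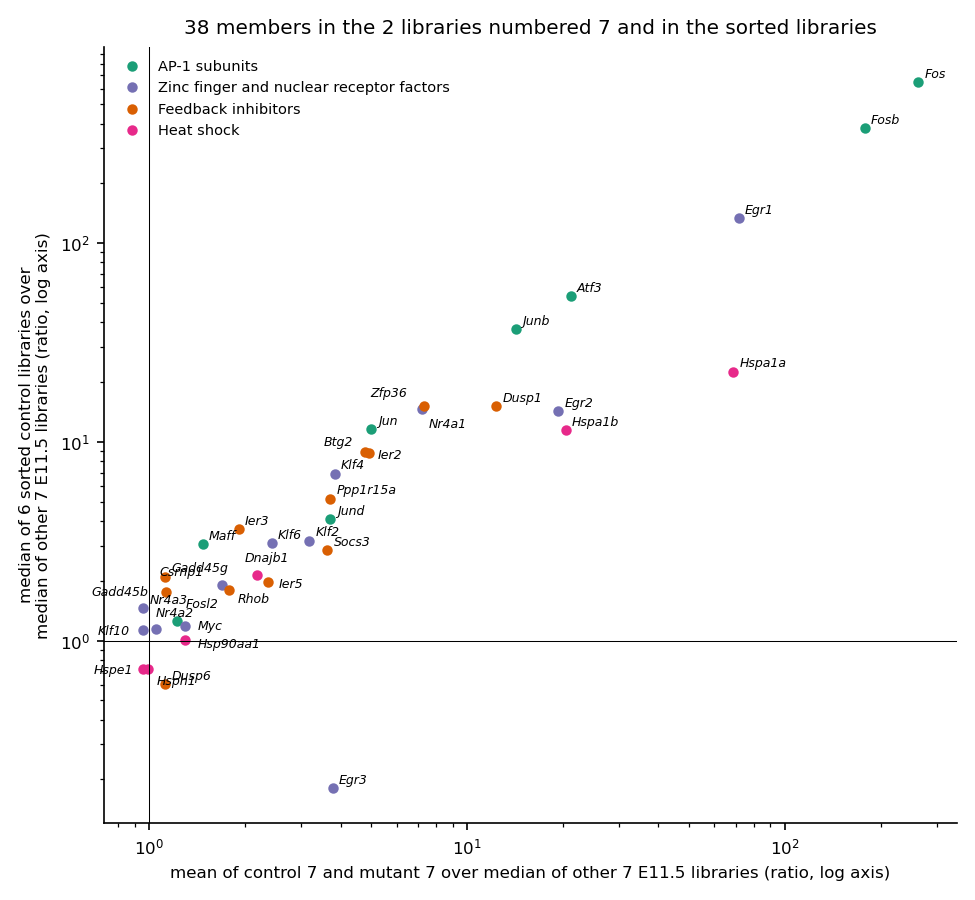
Each of the 38 members by its level in control 7 and mutant 7 (mean, horizontal axis) and in the 6 sorted controls (median, vertical axis), both divided by the median of the other 7 E11.5 libraries, on log axes. The shared divisor ties the axes together. Fos, Fosb and Egr1 lie at the upper right, Hspa1a and Hspa1b lie further right than up, and Klf10, Nr4a2, Hsph1 and Hspe1 lie near 1 on the horizontal axis.

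The first question was which members were higher in every sorted cell type than in E11.5 control tracheas. With all 5 controls, no member passed an adjusted p of 0.05 (quasi-likelihood test of edgeR, p-values adjusted by Benjamini-Hochberg over all genes) in all 3 populations, and 0.448% of all genes tested did. Without control 7 the count was 12 members: Fos, Fosb, Jun, Junb, Egr1, Atf3, Ier2, Dusp1, Zfp36, Hspa1a, Hspa1b and Ppp1r15a. The share of all genes was then 0.47%. DESeq2 with all 5 controls called 2, Ier2 and Ppp1r15a, against 0.741% of all genes.

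In epithelium 15 members were called higher than in the 5 controls and 1 lower, against 5.23% of all genes higher and 7.43% lower. Atf3 rose by 5.43 on the log2 scale (SE 1.19, adjusted p = 0.0155 by edgeR), Egr2 by 5.19 (SE 1.27) and Egr1 by 4.65 (SE 1.38). The others called were Nr4a1, Junb, Ier2, Btg2, Klf6, Zfp36, Jun, Ier3, Csrnp1, Ppp1r15a, Klf10 and Dnajb1. Myc fell by 2.61 on the log2 scale (SE 0.41). Without control 7 there were 21 higher, against 4.36% of all genes, with Fos, Fosb, Jund, Dusp1, Hspa1a and Hspa1b added and none lost. Leaving out control 13 or control 18 instead left 9 and 9 higher. Of all genes 7.37% and 7.99% then passed in either direction, against 12.7% with all 5 controls. Leaving out the later epithelium, which leaves 1 library there, also lowered the count of members. Fos had a log2 difference of 4.33 (SE 1.57) with control 7 and rose by 7.65 (SE 1.01) without it. DESeq2 with all 5 controls called 14 higher, against 23.8% of all genes in either direction. Compared with edgeR, it lost Atf3, Egr2, Egr1, Junb and Zfp36 and added Gadd45b, Jund, Klf2 and Maff. In edgeR, Egr1 and Egr2 were not called when control 13, 16, 17 or 18 was left out.

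In muscle 9 members were called higher and 1 lower, where 4.96% of all genes were higher and 4.33% lower. Junb rose by 3.15 on the log2 scale (SE 0.83), Jun by 2.69 (SE 0.54) and Gadd45g by 2.35 (SE 0.41), followed by Klf4, Gadd45b, Ier2, Ier3, Ppp1r15a and Klf6. Dusp6 fell by 2.01 (SE 0.37, adjusted p = 0.00869 by edgeR). Without control 7, 18 were higher, against 4.15% of all genes. Leaving out control 13, 16, 17 or 18 instead left 3, 4, 3 and 3 higher. Of all genes 5.34%, 7.24%, 4.99% and 5.89% then passed in either direction, against 9.29% with all 5 controls. Leaving out the earlier or later muscle, which leaves 1 library there, also lowered the count of members. The 18 gained Fos, Fosb, Egr1, Atf3, Dusp1, Zfp36, Nr4a1, Btg2, Socs3, Hspa1a and Hspa1b and lost Klf4 and Ier3.

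In chondroblasts no member passed with all 5 controls, where 2.53% of all genes were higher. The log2 differences were positive for 29 of the 37 members tested, and the share of all genes with a positive one was not counted. Their median was 0.91, against -0.06 for all genes. Of the 37, 11 had an unadjusted p under 0.05, against 20.2% of all genes. Fos differed by 3.21 (SE 1.54), Junb by 2.87 (SE 0.83) and Zfp36 by 2.56 (SE 0.84). Without control 7, 13 were called higher, the 12 common to all populations and Socs3, against 2.2% of all genes. DESeq2 with all 5 controls called Ier2, Klf4 and Ppp1r15a higher and Hsph1 and Hsp90aa1 lower, against 12.5% of all genes in either direction.

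**Figure D4:**
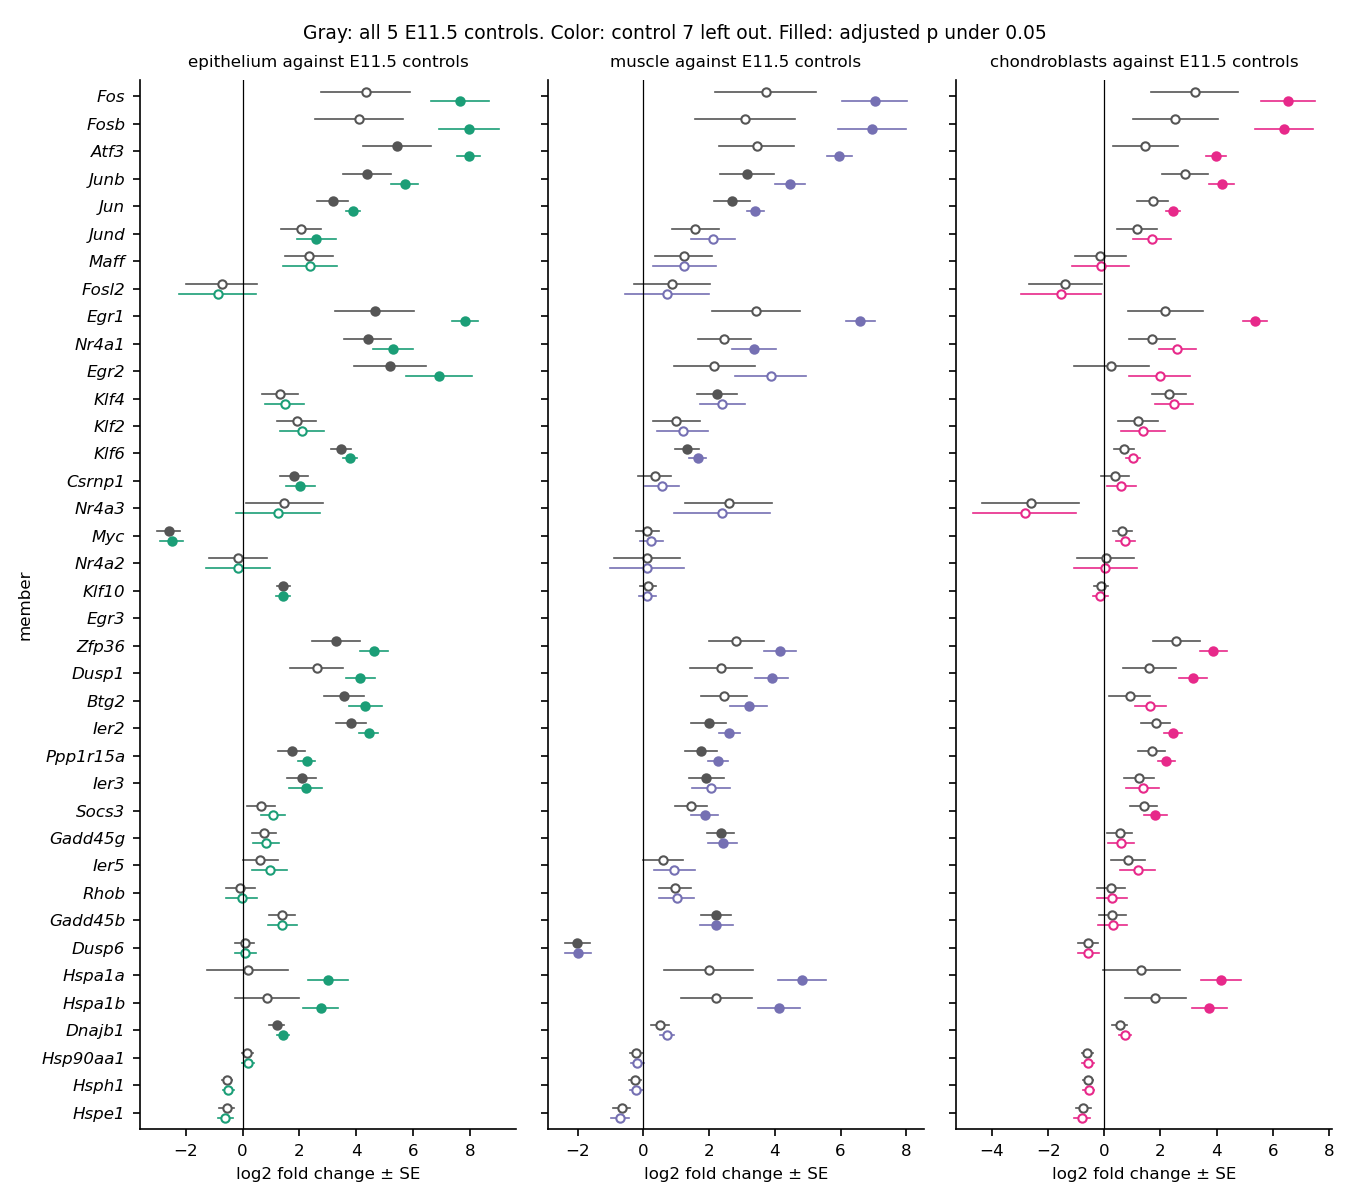
Log2 fold change (± SE) of each tested member in the 3 sorted populations against E11.5 controls, with all 5 controls (gray) and without control 7 (color). Filled points passed an adjusted p of 0.05. Leaving out control 7 moves Fos, Fosb, Egr1, Hspa1a and Hspa1b to the right and shortens their error bars, and leaves Klf10, Myc, Dusp6, Gadd45b and Gadd45g nearly in place.

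By role, the median log2 difference of the AP-1 genes was 3.63 in epithelium, 2.89 in muscle and 1.59 in chondroblasts, against -0.13, -0.06 and -0.06 for all genes. Feedback inhibitors had 1.55, 1.95 and 1.07, and zinc finger and nuclear receptor factors 1.81, 1.33 and 0.64. The heat shock genes had 0.17, 0.14 and -0.02. The medians without control 7 were 4.79, 3.94 and 3.21 for AP-1 genes and 0.80, 0.26 and 0.10 for heat shock genes.

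A second question was which members were bound to a cell type. The E11.5 controls enter these contrasts only through the shared estimate of spread. Between epithelium and chondroblasts 3 members were called, and 10.8% of all genes were. Klf6 was higher in epithelium by 2.76 on the log2 scale (SE 0.47, adjusted p = 0.00458 by edgeR) and Klf10 by 1.56 (SE 0.29), while Myc was lower, with a log2 difference of -3.25 (SE 0.45). Between epithelium and muscle 4 were called, against 13.1% of all genes: Klf6 by 2.13 (SE 0.46), Dusp6 by 2.08 (SE 0.41), Klf10 by 1.29 (SE 0.29) and Myc by -2.73 (SE 0.45). Leaving out the later muscle library left Myc alone called, and leaving out the earlier one ended the call of Klf6. Between muscle and chondroblasts no member and 0.822% of all genes passed in edgeR. Of the 37 members, 4 had an unadjusted p under 0.05 there, against 11.7% of all genes, and DESeq2 called Gadd45b and Gadd45g higher and Dusp6 lower in muscle, against 5.21% of all genes. The shares called among the 37 members were no larger than those of all genes in edgeR.

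Without control 7, 8 members differed between epithelium and chondroblasts, against 9.6% of all genes. Those added were Atf3, with a log2 difference of 3.98 (SE 0.44), Btg2, Egr1, Ier2 and Jun. Atf3 and Ier2 were added between epithelium and muscle, by 1.99 (SE 0.41) and 1.82 (SE 0.39), where 11.6% of all genes were called. Without control 7, Atf3 and Ier2 were thus called higher in all 3 gates and higher again in epithelium. Control 7 is on neither side of the contrasts between populations, and leaving it out changes the estimate of spread they share. Between epithelium and chondroblasts the median log2 difference of the members was 0.846 with it and 0.847 without. Since control 7 was picked by these genes' own levels, the calls added here are no independent evidence. With all 5 controls, Klf10 and Myc differed from the E11.5 controls in epithelium and Dusp6, Gadd45b and Gadd45g in muscle. The difference of Gadd45g between epithelium and muscle, -1.60 (SE 0.54), missed the threshold (adjusted p = 0.0736 by edgeR). Egr2 was called in epithelium against the E11.5 controls, but its difference from chondroblasts, 4.94 (SE 1.83), missed the threshold (adjusted p = 0.114 by edgeR). For Klf10, Myc and Dusp6 the libraries numbered 7 had levels in or near the range of the other E11.5 libraries.

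**Figure D5:**
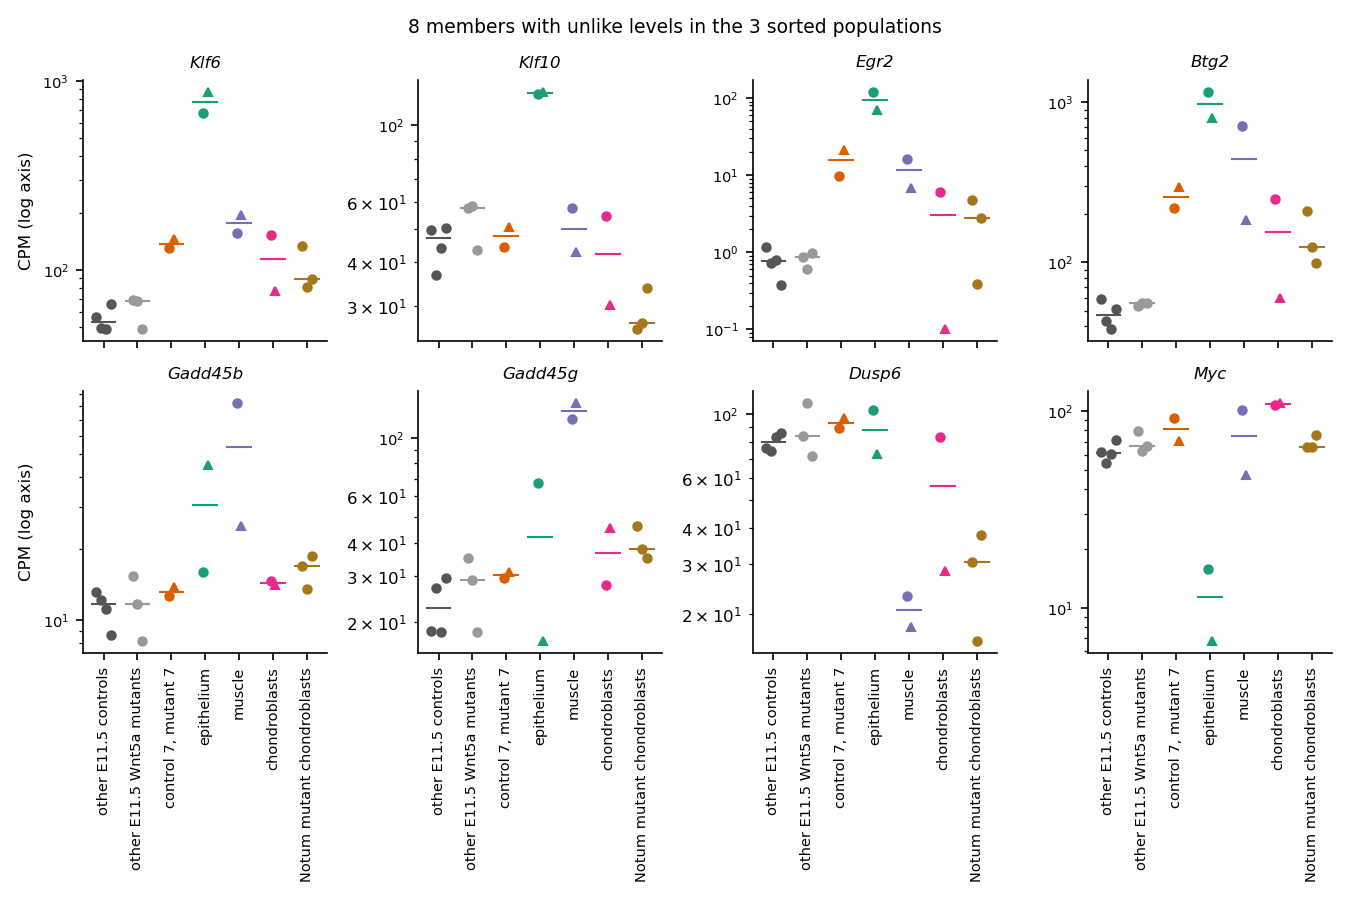
CPM on log axes of 8 members in 7 sets of libraries, 1 point per library, a line at the median of each set. Triangles mark mutant 7 and the later date, and values under 0.1 are drawn at 0.1. Klf6, Klf10 and Egr2 are highest and Myc lowest in epithelium, Gadd45g is highest and Dusp6 low in muscle, and the libraries numbered 7 do not share these shifts for Klf10, Gadd45b, Gadd45g and Dusp6.

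The 2 dates of the sorted controls differed in these genes, with 1 library per population and date, and the effect of date was not tested. In muscle 27 of the 37 tested members were lower at the later date and in chondroblasts 26, against 49.3% and 55.4% of all genes. In epithelium 11 were lower, against 53.6% of all genes. Egr2, Dusp6, Zfp36, Nr4a2, Btg2 and Socs3 were lower at the later date in every population. Jund, Hspa1a and Hspa1b were higher in every population: Hspa1a by 4.86 times in muscle, 2.16 times in chondroblasts and 1.01 times in epithelium, and Hspa1b by 4.39, 2.68 and 2.61 times. Over the same pairs the later Fos level was 0.563 times the earlier in muscle, 0.362 times in chondroblasts and 1.005 times in epithelium. Fos and the HSP70 genes thus went opposite ways between the dates in muscle and chondroblasts. Blood cell markers also changed with date, from 11.2 to 2817 CPM in muscle, from 13.9 to 438 CPM in epithelium and from 70390 to 6591 CPM in chondroblasts, and their part in these shifts was not tested.

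Promoters are shown for 7 members, because 3 short motifs of stimulus-dependent factors lie in them and they include 6 genes with higher levels in control 7 and mutant 7 and 1, Hspe1, without. RefSeq promoters (GRCm38.p6, 250 bases before to 50 after a start) were found for 32 of the 38 members as 43 entries. Egr1, Egr3, Ier2, Klf10, Hsp90aa1 and Myc had none. The lines give the 150 bases before the start on the gene's strand, 5′ to 3′. Capitals mark a CArG box (bound by SRF) in Zfp36 and Egr2, TGACGTCA (the cAMP response element) in Dusp1 and Ppp1r15a, and GAANNTTC (part of the heat shock element) in the others. The intervals are chr7:28379229-28379378 (minus strand) for Zfp36, chr10:67537416-67537565 (plus) for Egr2, chr17:26508473-26508622 (minus) for Dusp1, chr7:45526269-45526418 (minus) for Ppp1r15a, chr17:34972157-34972306 (minus) for Hspa1a, chr17:34959239-34959388 (minus) for Hspa1b and chr1:55087998-55088147 (plus) for Hspe1.
Zfp36: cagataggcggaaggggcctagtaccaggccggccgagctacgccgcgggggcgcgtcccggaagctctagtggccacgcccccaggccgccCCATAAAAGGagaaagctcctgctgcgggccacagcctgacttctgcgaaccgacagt
Egr2: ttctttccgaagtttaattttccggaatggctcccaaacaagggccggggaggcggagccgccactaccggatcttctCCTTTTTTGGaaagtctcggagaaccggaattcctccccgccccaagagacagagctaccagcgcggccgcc
Dusp1: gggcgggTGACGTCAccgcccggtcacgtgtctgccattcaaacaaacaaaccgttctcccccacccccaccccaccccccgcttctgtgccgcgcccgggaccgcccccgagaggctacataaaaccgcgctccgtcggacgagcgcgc
Ppp1r15a: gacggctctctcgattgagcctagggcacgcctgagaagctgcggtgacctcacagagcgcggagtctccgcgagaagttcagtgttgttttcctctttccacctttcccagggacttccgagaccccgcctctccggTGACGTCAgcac
Hspa1a: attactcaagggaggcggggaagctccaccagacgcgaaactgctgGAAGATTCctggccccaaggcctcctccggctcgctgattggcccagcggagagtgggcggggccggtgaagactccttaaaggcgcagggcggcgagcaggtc
Hspa1b: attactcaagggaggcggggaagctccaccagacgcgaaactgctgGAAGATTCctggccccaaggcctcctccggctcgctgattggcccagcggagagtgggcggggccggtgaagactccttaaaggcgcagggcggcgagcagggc
Hspe1: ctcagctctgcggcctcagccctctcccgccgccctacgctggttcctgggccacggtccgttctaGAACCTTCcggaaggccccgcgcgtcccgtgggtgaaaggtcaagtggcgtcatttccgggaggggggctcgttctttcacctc

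The CArG box stood in 11.6% of the member entries, those of Egr2 and Zfp36, and in 1.63% of all 32851 promoters. TGACGTCA was in 9.3% and 1.79%, in Dusp1, Btg2, Ppp1r15a and Maff. GAANNTTC was in 16.3% and 7.86%, in Fosl2, Jun, Hspa1a, Hspa1b, Hsph1 and Hspe1, and TATAAA in 14% and 13.6%. TGANTCA, the AP-1 site, was in 2.33% and 7.81%, with Csrnp1 as its 1 holder. Both strands were searched, and 5 of the 43 entries are overlapping starts of Egr2. GAANNTTC was found in heat shock genes of both patterns. It lies 104 bases before the start in Hspa1a and Hspa1b, whose 150 bases shown are identical at 149, and 84 bases before the start in Hspe1, which was lower in the sorted libraries. A match of letters is a description and not a bound site.

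Other genes of the same response, not among the 38, were read beside them. Of 42 other early response genes, 35 were tested, and 10 were higher in epithelium, 8 in muscle and 4 in chondroblasts. Plk2, a kinase of the cell cycle and stress, was lower in epithelium, the 1 lower call of this list. The shares of all genes given above for higher calls, 5.23%, 4.96% and 2.53%, apply here too, as does 7.43% for lower calls in epithelium. Nfkbia, the inhibitor of NF-kappa-B, was higher in all 3 with all 5 controls, by 1.49 (SE 0.22), 0.96 (SE 0.23) and 1.03 (SE 0.22) on the log2 scale. It had 47.5 to 76.3 CPM in the other 7 E11.5 libraries, 76.9 and 94.9 CPM in control 7 and mutant 7, and 108 to 208 CPM in the sorted controls. Control 7 lay above the other 4 controls for Nfkbia, at 47.5 to 62.6 CPM, but below every sorted control. Without control 7, Ccn1, a matrix protein induced by serum, and Zfp36l1, a relative of Zfp36, joined it. Ccn1 had 43.0 to 125 CPM in the other 7, 886 and 968 CPM in control 7 and mutant 7, and 444 to 2858 CPM in the sorted controls.

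Factors upstream of the response were also read. Of 17 genes for SRF, its partners, CREB and MAP kinases, 1 was higher and 1 lower in epithelium and none passed in muscle or chondroblasts. Among 18 other chaperones 3, 2 and 0 were higher in the same order and 0, 0 and 1 lower, and among 8 tested genes of the integrated stress response 1, 1 and 0 were higher. Of all genes 5.23%, 4.96% and 2.53% were higher in that order. Lower were 7.43% in epithelium, 4.33% in muscle and 285 of 14971 genes in chondroblasts. Of 6 housekeeping genes Hprt was higher in epithelium, by 0.92 (SE 0.20), and Gapdh lower in muscle, with a log2 difference of -0.57 (SE 0.16). Actb was lower in all 3, with a log2 difference of -2.17 (SE 0.26) in epithelium, -1.80 (SE 0.25) in muscle and -2.003 (SE 0.26) in chondroblasts.

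The Wnt5a mutants were compared with their controls at E11.5 to ask whether the members changed with genotype. None of the 34 members tested passed, and 0.0136% of all genes did, with edgeR. None had an unadjusted p under 0.05 in this unpaired fit, and DESeq2 called none. With a block for the column number, which pairs the libraries, none was called in edgeR. There 2 members had an unadjusted p under 0.05, against 4.45% of all genes. With the block and without control 7 and mutant 7, a fit chosen after seeing the data, 4 had one, against 3.49%, and none was called. The 3 with the smallest p were Ier3, Klf10 and Hsph1, at log2 differences of 0.57 (SE 0.40), 0.19 (SE 0.14) and -0.20 (SE 0.15). The interval around Fos was wide, 0.93 (SE 1.90), since control 7 and mutant 7 were both high. Without the pair Fos differed by -2.26 (SE 0.89) and Hspa1a by -1.93 (SE 0.59), with unadjusted p of 0.0294 and 0.00818 and adjusted p of 0.983 and 0.963 by edgeR. Control 18 held the highest Fos and Hspa1a of these 7 libraries, at 37.5 and 20.1 CPM.

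The Notum mutants were compared with control chondroblasts for the same question. None of the 36 members tested passed with edgeR, and 0% of all genes did, while 5 members and 1762 of all genes, or 12.5%, had an unadjusted p under 0.05. The share among the 36 members was thus close to that of all genes. Those 5, Fos, Junb, Ier2, Socs3 and Myc, were all lower in the mutants. Of the 36 members 9 had a positive difference, and the share of all genes with one was not counted. The median log2 difference was -0.20 for the members and 0.02 for all genes, and the direction was not tested. Fos had 524, 266 and 268 CPM in the mutants against 1791 and 648 CPM in the controls, a log2 difference of -1.77 (SE 0.47, adjusted p = 0.27 by edgeR). Junb had 108, 75.1 and 75.9 CPM against 238 and 126 CPM, and Myc 65.3, 65.6 and 75.3 CPM against 107 and 110 CPM. The share of all genes whose groups do not overlap was not counted, so any separation of these levels is no added evidence.

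DESeq2 called Ier2, Junb and Myc lower in the Notum mutants, with 354 of all genes higher and 172 lower, or 3.73%. The 3 mutant libraries were of the later date, and among the controls the later library was nearer to them in Fos, Junb and Ier2. Without the later control, Fos, Ier2 and Junb passed as lower in edgeR, where 0.737% of all genes were called. Without the earlier control, Myc passed as lower and Fosl2, at 0 CPM in the later control, as higher, where 17.5% of all genes were called, a larger share than among the 36 members. Each of these fits leaves 1 control, which is assumed to vary like the mutants. Hspa1a had 129, 218 and 82.2 CPM in the mutants against 102 and 219 CPM in the controls, and did not separate them.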

How the data were processed

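RNA was made into libraries with SMART-Seq v4, which primes poly(A) RNA, and Nextera XT. The authors deposited expected counts, estimated counts per transcript entry that need not be whole (55.99% of values were fractional), from reads aligned to mm10. The submitters' processing notes name Partek and limma, without versions. The table held 47248 entries for 26202 symbols. Entries were summed per symbol and rounded, which merges transcripts of a gene. Of 22 library columns, 18 were matched to a group by name and 4, which match no label, were not used. The labels list more sorted samples than the columns used, and the earlier epithelium column was matched by elimination among the sorted names.

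Tests were edgeR 4.0.16 quasi-likelihood fits (R 4.3.3, TMM scaling, Benjamini-Hochberg adjustment over all genes, 2-sided). Each SE given is the absolute log2 difference divided by the square root of the F statistic of its test. It was worked back from the test and is not a separate estimate. Fits used 11 control libraries (14971 genes), the 9 E11.5 libraries (14663 genes) or the 5 chondroblast libraries (14120 genes), and CPM levels used TMM factors over all 18. DESeq2 1.42.0 was an alternative, as were other scaling, no filter, a date term, other sets of libraries and leaving out each library. Scripts were tested on simulated data. Where nothing says that samples of a group came from separate animals, p-values measure only the spread between these samples. The members, the lists and the alternatives were chosen with earlier results of these data known. A member was given library by library if it was called in all 3 populations (without control 7), among the 3 largest called changes of a contrast, called between sorted populations, among the 6 furthest apart in control 7 and mutant 7, or among the 3 smallest p in a mutant comparison. The rest are given by ranges. Single values of Btg2, Nr4a1, Gadd45b and Dnajb1, outside this rule, were chosen after their values were seen.

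Controls and Wnt5a mutants share numbers in their column names. Deviations from the group means of same-numbered libraries correlated at 0.618 (7), 0.209 (13), 0.128 (17) and 0.128 (18), over genes, all above 0.1, and the numbers were taken to pair the libraries. Control 16 has no partner, and its correlation with mutant 17, of another number, was 0.256.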

Additional observations from a re-analysis of the deposited data

Results flagged for a closer look

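Single libraries stood far from the others of their group by Dixon's test in 37 of 74 member and group pairs, where chance flags about 1 in 20 groups. All but 1 were control 7 or mutant 7, already set apart by these same genes, which move together within a library, so the number of pairs is no independent evidence. Of these, 19 were control 7 among the 5 E11.5 controls. Its CPM was 615 for Fos, 26.2 for Fosb, 941 for Jun, 84.6 for Junb, 532 for Egr1, 9.75 for Egr2, 96.9 for Atf3, 332 for Ier2, 11.9 for Ier5 and 441 for Dusp1. It was 38.8 for Zfp36, 33.5 for Nr4a1, 129.9 for Klf6, 217 for Btg2, 289.6 for Hspa1a, 186 for Hspa1b, 209 for Dnajb1, 40.1 for Socs3 and 101 for Ppp1r15a.

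Mutant 7 stood apart in 17 pairs among the 4 Wnt5a mutants. Its CPM was 1003 for Fos, 34.6 for Fosb, 1032 for Jun, 117.5 for Junb, 12.1 for Jund, 757 for Egr1, 21.3 for Egr2, 91.2 for Atf3, 422 for Ier2 and 481 for Dusp1. It was 45.55 for Zfp36, 49.8 for Nr4a1, 4.94 for Klf2, 294 for Btg2, 281 for Hspa1a, 189 for Hspa1b and 57.9 for Socs3. The remaining value was Fosl2 in control 16, at 8.97 CPM against 2.51 to 4.08 CPM in the other controls.

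Members whose difference from the E11.5 controls was unequal between sorted populations, by the edgeR test of the populations against each other, were also set aside. Between epithelium and chondroblasts the log2 difference was 2.76 for Klf6, 1.56 for Klf10 and -3.25 for Myc. Between epithelium and muscle it was 2.08 for Dusp6, 2.13 for Klf6, 1.29 for Klf10 and -2.73 for Myc.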

How the results depend on the processing

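Without control 7 the count of members called in either direction was 19 in muscle, 13 in chondroblasts, 8 between epithelium and chondroblasts and 12 for members higher in all 3 populations. With all labelled libraries in 1 fit and without control 7 and mutant 7, chosen after seeing the data, the counts were 25 in epithelium, 24 in muscle, 18 in chondroblasts, 12 between epithelium and chondroblasts, 1 between muscle and chondroblasts, 8 between epithelium and muscle, and 16 in all 3, against 21.5%, 15.6%, 8.57%, 16.8%, 2.4%, 20.5% and 0.735% of all genes. With all labelled libraries in 1 fit they were 2 in chondroblasts and 1 between muscle and chondroblasts, against 10.3% and 3.47% of all genes. DESeq2 gave 5 in chondroblasts, 6 between epithelium and chondroblasts, 3 between muscle and chondroblasts, 3 in the Notum mutants and 2 in all 3, against 12.5%, 19.7%, 5.21%, 3.73% and 0.741% of all genes. With no filter there were 3 in chondroblasts and 3 in all 3, against 2.68% and 0.263%. For these alternatives the cause was not tested.

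Leaving out each library in turn gave 9 to 22 members in epithelium, 2 to 19 in muscle, 0 to 13 in chondroblasts, 3 to 8 between epithelium and chondroblasts, 0 to 1 between muscle and chondroblasts, 1 to 7 between epithelium and muscle, 0 to 12 in all 3, 0 to 3 in the Notum mutants and 0 to 0 in the Wnt5a mutants. The lowest in epithelium came without the later epithelium and the lowest in muscle without the earlier muscle. Both come from fits that leave 1 library in the population. The share of all genes called moved as well. On leaving out 1 E11.5 control it ran from 7.16% to 10.9% in epithelium and 4.99% to 7.44% in muscle. It ran from 2.2% to 3.84% in chondroblasts, 7.89% to 10.5% between epithelium and chondroblasts and 9.81% to 12.9% between epithelium and muscle. Between epithelium and chondroblasts, leaving out the earlier epithelium or the earlier chondroblasts gave 6. The lowest between epithelium and muscle came without the later muscle and the highest without the earlier epithelium. These fits too leave 1 library in a population, so their counts describe that library. With the replicate block by column number, 0 members were called in the Wnt5a mutants, as without it. The sorted columns carry no replicate numbers, and their 2 dates entered as the date term. With it, Btg2, Klf10 and Klf6 were called higher and Myc lower in epithelium than in chondroblasts, against 13.9% of all genes. Between epithelium and muscle the calls were those of the main fit, against 16.4%. Between muscle and chondroblasts there were 0, against 1.12%. In epithelium against E11.5 controls Egr1 was lost and Maff gained, against 18.3%. Over calls of the main fits and the alternatives, 535 values kept their side of the threshold and 92 lost it, and none reversed. Calls gained in an alternative, such as those without control 7, are not in this count. Depth limits Fosb, Egr2, Egr3, Nr4a3 and Maff, whose E11.5 levels lay near the floor.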
